A study of Rattus norvegicus with 8 samples.

Results

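The testis-specific serine kinases and the pore subunits of the CatSper channel were followed as 9 genes, Tssk1b, Tssk2, Tssk3, Tssk4, Tssk6, Catsper1, Catsper2, Catsper3 and Catsper4, chosen by name. A probe was taken for a gene when its accession matched a rat RefSeq gene of that symbol. This gave 1 probe each for 7 of the 9 genes, among 15154 named genes on the array, and all 7 were among the 10236 genes tested. Expression of Tssk4 and Catsper1 was not analysed here. RNA came from cells sorted with an antibody to CD9, a tetraspanin of the cell surface, from testes of Sprague-Dawley rats carrying a GFP transgene specific to germ cells, so both age groups carried it. The young group held 4 arrays from rats of 4 months and the aged group 4 arrays from rats of 21 months, each a one-colour Agilent array labelled with Cy3 from 18 ng of total RNA. The labels do not state whether arrays came from separate or pooled animals, so a p-value here reflects only the variation among these arrays, and that variation may be technical.

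The TSSK kinases are made in spermatids, the haploid cells that reshape into sperm, and loss of family members in mice disturbs sperm formation. TSSK6 takes part in the exchange of histones for protamines, and TSSK1 and TSSK2 act together with their substrate TSKS in the spermatid cytoplasm. CatSper is the calcium channel of the sperm flagellum. Its pore is built from CATSPER1 to CATSPER4, it opens at alkaline pH, and it drives the whip-like hyperactivated beat needed for fertilisation. Both sets of genes are switched on mainly after meiosis, whereas CD9 was used here to collect spermatogonia, the dividing germ cells at the base of the tubule.

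The 75th percentile of the processed signal over the probes of an array, set to 0 on the log2 scale used below, lay between 326 and 524 intensity units, and 63.0% to 72.0% of probes were well above background. All 25 measured spermatid markers were well above background on every young array, and 23 to 25 of them on the aged arrays. Of 19 measured spermatogonium markers, 16 to 18 were well above background on the young and 15 to 17 on the aged arrays. Cd9 itself changed by −0.16 ± 0.16 (SE, limma adjusted p = 0.492). Young replicate 1 stood apart from the other young arrays, so results are given with and without it. All arrays shared 1 slide, with the young arrays in one row and the aged arrays in the other, and slide row and age cannot be told apart. In sorted bulk cells, fewer cells of a type and less RNA per cell cannot be told apart either.

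Upstream sequences are shown for 4 members. Tssk3 and Tssk6 are shown as 2 of the 4 measured kinases. Catsper3 is the member whose young and aged levels did not overlap, and Catsper4 the member whose mean was not lower in aged cells. The sequences are the 250 bases before the annotated start from RefSeq (build GRCr8), 5′ to 3′ on the strand of the gene. Capitals mark matches to the motifs named after them.
Tssk3, upstream bases of the minus strand at chr5:147113594-147113843: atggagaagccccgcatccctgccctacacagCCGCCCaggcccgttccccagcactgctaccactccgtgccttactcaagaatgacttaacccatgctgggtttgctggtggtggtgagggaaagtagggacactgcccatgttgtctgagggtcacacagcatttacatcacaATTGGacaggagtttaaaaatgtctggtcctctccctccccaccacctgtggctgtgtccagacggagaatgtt
Tssk6, upstream bases of the minus strand at chr16:19559919-19560168: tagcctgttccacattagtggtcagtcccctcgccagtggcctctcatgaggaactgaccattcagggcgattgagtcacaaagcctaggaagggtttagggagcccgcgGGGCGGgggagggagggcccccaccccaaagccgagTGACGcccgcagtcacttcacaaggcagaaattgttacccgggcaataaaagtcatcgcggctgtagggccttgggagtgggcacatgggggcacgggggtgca
Catsper3, upstream bases of the minus strand at chr17:8846051-8846300: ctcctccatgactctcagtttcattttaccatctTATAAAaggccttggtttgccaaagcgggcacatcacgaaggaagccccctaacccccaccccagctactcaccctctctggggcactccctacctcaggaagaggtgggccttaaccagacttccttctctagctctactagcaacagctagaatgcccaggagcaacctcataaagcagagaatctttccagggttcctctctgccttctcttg
Catsper4, upstream bases of the minus strand at chr5:151730698-151730947: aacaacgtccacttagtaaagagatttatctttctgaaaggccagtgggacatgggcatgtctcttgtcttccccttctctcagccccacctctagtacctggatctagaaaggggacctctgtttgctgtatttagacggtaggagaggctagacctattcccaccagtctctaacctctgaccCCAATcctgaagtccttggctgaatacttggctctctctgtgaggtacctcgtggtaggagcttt
RefSeq held windows of 300 bases, 250 before and 50 after a start, for 7 of the 9 members (all but Catsper1 and Catsper2), with several starts for Catsper3 and Catsper4 and 9 windows in all. The motifs searched on both strands were the full cAMP response element TGACGTCA, its core TGACG, which lies within the full element, the TATA box TATAAA, the X-box motif GTTGCC, the CCAAT box CCAAT and the GC box GGGCGG. The core was in 1 of the 9 member windows, that of Tssk6 at bases −104 to −100 from the start, against 21.2% of all 33469 windows. The full element was in 0 of the 9 member windows and 1.83% of all windows, and the X-box motif in 0 of 9 and 12.2%. TATAAA was in 3 of 9 member windows, from 2 genes (14.2% of all windows), in Catsper3 at −216 to −211. The 2 windows of Catsper3 overlap and share that site. CCAAT was in 4 of 9, from 3 genes (37.5%), in Tssk3 at −74 to −70 on the reverse strand and in Catsper4 at −65 to −61. The GC box was in 3 of 9, from 3 genes (33.1%). No motif was therefore common to the members in these windows. Tssk1b and Tssk2 are neighbours on chromosome 11 in RefSeq, with 0 annotated genes between them.

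Among the 7 measured members, 6 had lower mean levels in aged than in young cells and 0 passed the test, against 0.655% of all genes tested (67 of 10236, with 0.156% called lower and 0.498% called higher in aged cells). The means of the 4 kinases and Catsper2 were lower by 1.62-fold to 2.67-fold. That of Catsper3 was lower by 2.41 on the log2 scale, or by 0.75 with normexp background correction, since its probe was well above background on 1 of the 4 aged arrays. Catsper4 differed by 0.11 on the log2 scale. Over all genes 36.6% had a difference below 0, and the difference of the median gene was 0.11. The groups overlapped in 6 members. Those of Catsper3 did not, but that probe passed the filter on dim signals through the young group alone, so its separation is a description. Over all genes 4.12% had every aged array below every young array, and 10.2% every aged array above.

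**Figure D1:**
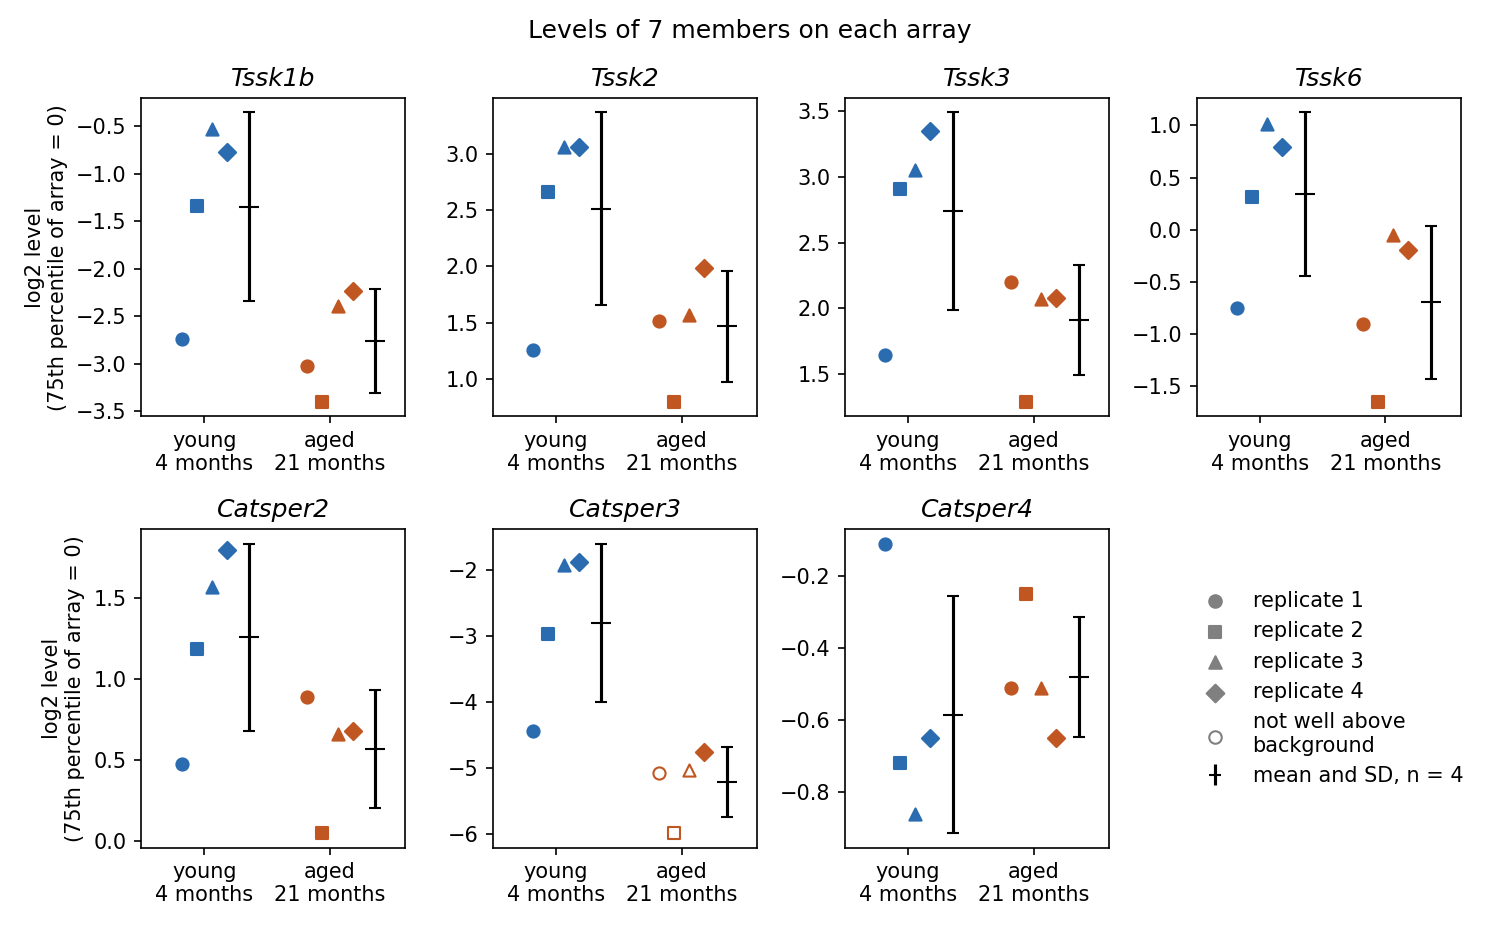
Levels of the 7 measured members on each array, as log2 processed signal minus the 75th percentile of the array, with marker shapes for replicate numbers, open markers where the probe was not well above background, and the mean and SD of each group of 4. Young replicate 1 (blue circle) is the lowest young array in every panel but Catsper4, where it is the highest at −0.11; replicate numbers carry no order.

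Tssk1b, a kinase of the spermatid cytoplasm, had levels of −2.74, −1.34, −0.53 and −0.77 in young replicates 1 to 4 and of −3.02, −3.40, −2.39 and −2.23 in aged replicates 1 to 4 (log2, relative to the 75th percentile). Young replicate 1 lay among the aged arrays, and the other 3 young arrays were above all aged arrays. The mean was −1.34 ± 0.99 in young and −2.76 ± 0.55 in aged cells (SD, n = 4), a difference of −1.42 ± 0.47 (SE, 95% interval −2.47 to −0.36) that did not pass over all genes in limma (adjusted p = 0.0936).

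Tssk2, its neighbour and closest partner, had levels of 1.26, 2.66, 3.06 and 3.06 in young replicates 1 to 4 and of 1.52, 0.80, 1.57 and 1.99 in aged replicates 1 to 4. Again young replicate 1 fell within the aged range while the other young arrays were above it. The difference was −1.04 ± 0.41 (95% interval −1.96 to −0.12, limma adjusted p = 0.127). Probe sequences were not used here, so whether either probe also binds the other kinase's RNA was not tested.

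Tssk3, a small kinase of the same family, had levels of 1.65, 2.91, 3.05 and 3.35 in young replicates 1 to 4 and of 2.20, 1.29, 2.07 and 2.08 in aged replicates 1 to 4. Of the aged arrays 3 lay within 0.13 of each other (2.07 to 2.20), and aged replicate 2 was far below them. The difference was −0.83 ± 0.36 (95% interval −1.64 to −0.02, limma adjusted p = 0.152).

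Tssk6, the kinase of histone exchange, had levels of −0.75, 0.31, 1.01 and 0.79 in young replicates 1 to 4 and of −0.90, −1.65, −0.05 and −0.19 in aged replicates 1 to 4. Here young replicate 1 was lower than 2 of the aged arrays. The difference was −1.04 ± 0.44 (95% interval −2.04 to −0.04, limma adjusted p = 0.149). All 4 kinases thus had lower means in aged cells by 1.78-fold to 2.67-fold, and each was well above background on all 8 arrays. The largest, that of the dim Tssk1b, depends on the background correction. With normexp correction it went from −1.42 to −0.89 with percentile and −0.83 with quantile scaling.

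Catsper2, a pore subunit, had levels of 0.48, 1.19, 1.57 and 1.8 in young replicates 1 to 4 and of 0.89, 0.05, 0.66 and 0.68 in aged replicates 1 to 4. Young replicate 1 was below 3 of the aged arrays. The difference was −0.69 ± 0.29 (95% interval −1.35 to −0.04, limma adjusted p = 0.142), the smallest among the 6 members with lower means.

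Catsper3, another pore subunit, was read near background. Its processed intensity was 15, 51.3, 132 and 110 in young replicates 1 to 4 and 9.80, 5.67, 12.1 and 19.3 in aged replicates 1 to 4. It was well above background on all young arrays and on 1 of the 4 aged arrays, replicate 4. After scaling every young array was above every aged array, with levels from −4.44 to −1.89 against −5.99 to −4.76. The difference was −2.41 ± 0.54 (95% interval −3.62 to −1.19, limma adjusted p = 0.0561), at rank 261 of the 10236 genes by p. With normexp background correction, which adds an offset of 50 and compresses dim signals, it shrank to −0.75 (adjusted p = 0.0414) with percentile scaling and to −0.71 (adjusted p = 0.0743) with quantile scaling. Those settings called 6.15% of all genes (2.61% lower, 3.55% higher) and 2.47% (0.332% lower, 2.14% higher).

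Catsper4, the remaining measured pore subunit, had the one mean that was not lower in aged cells. Its levels were −0.11, −0.72, −0.86 and −0.65 in young replicates 1 to 4 and −0.51, −0.25, −0.51 and −0.65 in aged replicates 1 to 4. Young replicate 1 and aged replicate 2, the lowest of their groups for the other 6 members, were the highest of their groups here. The difference was 0.11 ± 0.17 (95% interval −0.28 to 0.49, limma adjusted p = 0.686). Scaling to spike-in RNA, under which the median gene moved from 0.11 to −0.35, turned it to −0.35 (adjusted p = 0.184). That scaling rested on 4 spike-in probes and called 10.4% of all genes, 10.4% lower and 0.0586% higher.

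To compare Catsper4 with each other member in the same RNA, the log2 level of the other member was subtracted on every array, a choice made after its values were seen. Relative to Catsper3, which was not well above background on 3 of the 4 aged arrays, so that the size depends on the background correction, the change was 2.52 (exact two-sided permutation p = 0.0571, adjusted p = 0.171 over 6 pairs). Relative to the kinases and Catsper2 the change was 0.80 to 1.52, with exact p between 0.114 and 0.171 and an adjusted p of 0.171 for each. The difference between Catsper4 and Catsper3 was larger on 3 of the 4 aged arrays than on any young array. Probes differ in brightness, so only its change between arrays is read. A difference between Catsper4 and the other members in the effect of age was thus not shown with 4 arrays against 4, where the smallest possible p is 0.0286.

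For the 6 member probes with 2 spots, the median difference between the spots was 0.05 to 0.19 on the log2 scale, and the largest was 0.91, for Catsper3. For Catsper4 the median was 0.18 and the largest 0.41, against SDs between arrays of 0.33 in young and 0.17 in aged cells.

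Without young replicate 1, 6 of the 7 members fell and Catsper4 did not pass, against 36.9% of all genes called (14.6% lower and 22.3% higher). The values were −1.88 for Tssk1b, −1.46 for Tssk2, −1.19 for Tssk3, −1.40 for Tssk6, −0.95 for Catsper2 and −2.95 for Catsper3 (limma adjusted p = 0.00652, 0.00772, 0.00907, 0.0264, 0.0154 and 0.00306). Catsper4 stood at 0.26 (adjusted p = 0.105). That array had the lowest young level of each of the 6 members, so leaving it out widened their differences beforehand. The same limit holds for the pathway lists read below, since that array had the lowest young mean in each of them. It was below every other young array in 23.7% of all genes tested. Leaving out any other single array gave 0 calls among the members and those lists, and at most 1 call over all genes.

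**Figure D2:**
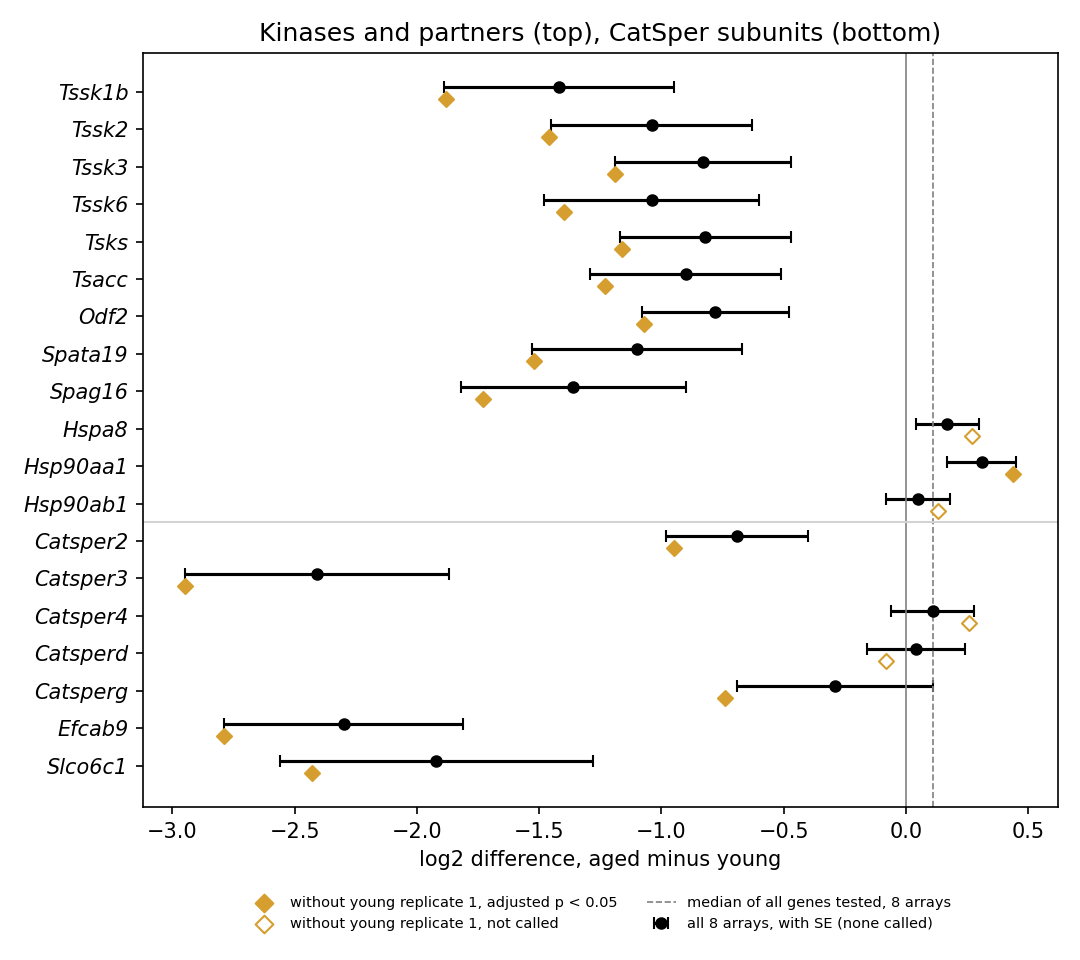
Log2 differences, aged minus young, for the kinases and their partners above the grey line and for CatSper subunits below it, with all 8 arrays (circles, SE) and without young replicate 1 (diamonds, filled where adjusted p was under 0.05). All 4 kinases lie between −1.42 and −0.83 with all arrays, near 5 of their partners, while Hspa8, Hsp90aa1, Hsp90ab1, Catsper4 and Catsperd lie close to the dashed median of all genes at 0.11.

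The other subunits of the channel were read from a list of 10 auxiliary genes, of which 4 were measured, 0 passed and 3 had lower values (median −1.11, against 0.11 over all genes). Efcab9, the calcium- and pH-sensing subunit, had levels of −1.11, 0.29, 0.91 and 1.27 in young replicates 1 to 4 and of −1.68, −2.69, −2.07 and −1.42 in aged replicates 1 to 4. These groups did not overlap, with 4.12% of all genes likewise lower on every aged array. The difference was −2.30 ± 0.49 (limma adjusted p = 0.0561). With normexp correction and percentile scaling it was −1.75 (limma adjusted p = 0.0354), where 2.61% of all genes were called lower. Slco6c1, a transporter-like subunit, differed by −1.92 ± 0.64 (adjusted p = 0.0953) and was well above background on 2 of 4 aged arrays. That value was −0.44 with normexp correction (adjusted p = 0.0619).

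Catsperd and Catsperg encode large extracellular subunits. Catsperd had levels between −3.39 and −2.73 in young and between −3.34 and −2.57 in aged cells and differed by 0.04 ± 0.20 (adjusted p = 0.895). Catsperg differed by −0.29 ± 0.40 (adjusted p = 0.633), with young replicate 1 at −2.86 and the other young arrays between −1.09 and −1.04. Without young replicate 1 it fell by 0.74 (adjusted p = 0.0232), and 3 of the 4 auxiliary genes fell, against 14.6% of all genes. With scaling to spike-in RNA Catsperd, like Catsper4, turned negative (−0.41).

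Of 8 genes listed as partners or substrates of the kinases, 0 passed, and 5 had lower values (median −0.80). Tsks, the substrate of TSSK1 and TSSK2, differed by −0.82 ± 0.35 (adjusted p = 0.150), and Tsacc, a co-chaperone that activates TSSK6, by −0.90 ± 0.39 (adjusted p = 0.155). Odf2, an outer dense fibre protein, Spata19, a sperm mitochondrial protein, and Spag16, a protein of the flagellar axoneme, differed by −0.78, −1.10 and −1.36 (adjusted p = 0.121, 0.125 and 0.100). The general chaperones Hspa8, Hsp90aa1 and Hsp90ab1 differed by 0.17, 0.31 and 0.05 (adjusted p = 0.387, 0.170 and 0.824), and their difference from the other partners was not tested. All 3 turned negative with scaling to spike-in RNA (−0.29, −0.15 and −0.41). Without young replicate 1, 5 of the 8 fell and Hsp90aa1 rose by 0.44 (adjusted p = 0.00916), against 14.6% of all genes lower and 22.3% higher under that setting.

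Genes that act with CatSper in sperm ion transport and pH were measured less completely. Of 14 listed, 5 were tested, 0 passed and 3 had lower values. Slc9c1, the sperm sodium-proton exchanger, differed by −1.47 ± 0.42 (adjusted p = 0.0766) and Adcy10, the bicarbonate-activated adenylyl cyclase, by −1.41 ± 0.41 (adjusted p = 0.0801). Without young replicate 1, 3 of these 5 fell, against 14.6% of all genes. In the list of sperm protein kinase A and tyrosine phosphorylation signalling, 13 of 15 tested genes had lower values (median −0.89) and 0 passed. Camk4, a calcium-dependent kinase, differed by −1.82 ± 0.46 (adjusted p = 0.0622) and Ppp3r2, the testis form of the calcineurin regulatory subunit, by −1.51 ± 0.46 (adjusted p = 0.0848). Without young replicate 1, the lowest young array in the mean of both lists, 10 of the 15 fell and 1 rose. Over all genes 14.6% were called lower and 22.3% higher under that setting.

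Of 8 tested transcription regulators of sperm formation 4 had lower values (median −0.24) and 0 passed. Taf7l, a germ cell subunit of the general transcription machinery, was higher on every aged array (0.60 ± 0.14, adjusted p = 0.0561), and Gtf2a1l, a germ cell form of TFIIA, was lower on every aged array (−1.58 ± 0.44, adjusted p = 0.0733). Over all genes 10.2% were higher and 4.12% lower on every aged array than on every young array. Crem, the activator that binds cAMP response elements in spermatids and was named after its values were seen, differed by −1.09 ± 0.34 (limma adjusted p = 0.0859). Without young replicate 1, 4 of the 8 fell and 1 rose, against 14.6% of all genes lower and 22.3% higher.

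The mean of the 7 members, though not Catsper4, moved over the arrays as a separate list of spermatid markers did. None of the members is on that list. Of its 25 tested genes 24 had lower values (median −0.90), and 1 was called, Hook1, a microtubule-binding protein that shapes the sperm head, which rose by 0.57 ± 0.10 (adjusted p = 0.0484). The mean of the 7 members, each centred on its mean over 8 arrays, was −0.44, 0.51, 0.99 and 1.03 in young replicates 1 to 4 and −0.48, −1.09, −0.31 and −0.22 in aged replicates 1 to 4. The spermatid mean was −0.49, 0.57, 1.03 and 1.14 and then −0.51, −1.19, −0.38 and −0.18. Both put the 8 arrays in the same order, and their difference on an array lay between −0.11 and 0.10. That order was not particular to spermatid markers, since the list of sperm protein kinase A and tyrosine phosphorylation signalling gave it too. The myoid and stromal mean also ran from aged replicate 2 (−1.48) to young replicate 4 (1.31). Catsper4 alone ran the other way, at 0.42 on young replicate 1 and 0.28 on aged replicate 2. The summed signal of the spermatid list was 381 on young replicate 1, between 709 and 955 in the remaining young group, and between 276 and 580 in the aged group (multiples of the 75th percentile).

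Markers of several other cell types also differed between these arrays. The summed signal of 15 myoid and stromal markers was 4.00 on young replicate 1, 17.5 or more on each remaining young array, up to 20, and between 2.39 and 5.54 in the aged group, with 11 to 14 of the 15 well above background. For 15 macrophage markers the sum was 9.40 on young replicate 1, 28 or more on each remaining young array, up to 31, and between 6.50 and 20.3 in the aged group, with 10 to 14 well above background. For 21 spermatocyte markers, all well above background on every array, the sums did not overlap between the ages, at 60.6 to 79.4 in young and 81.6 to 102 in aged cells. Of the 21 genes 7 were called higher in aged cells, against 0.498% of all genes tested. The other direction was seen for 4 of the 21, Hspa2, Ccna1, Pgk2 and Ldhc (−0.39, −1.54, −1.02 and −0.94), with 0 called lower. For 13 Sertoli cell markers, of which 7 to 13 were well above background, the sums did not overlap either, at 112 to 134 in young and 136 to 196 in aged cells. For the 19 markers of spermatogonia, the cells sought by the sort, the sum was 97.4 on young replicate 1, between 69.5 and 75.3 in the remaining young group and between 78.6 and 87.9 in aged cells. Such sums weigh the brightest gene most, here Uchl1 for spermatogonia and Shbg for Sertoli cells. Of the 16 spermatogonium markers tested, 10 had lower values in aged cells (median −0.11). Their mean centred log2 level lay between −0.03 and 0.21 in young and between −0.1 and 0.02 in aged cells. For 9 endothelial markers the sums did not overlap, at 1.49 to 1.63 in young and 1.26 to 1.45 in aged cells. For 10 Leydig cell markers they overlapped, at 1.22 to 2.58 in young and 1.07 to 2.13 in aged cells. The part of these cell types in the differences of the members was not tested.

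**Figure D3:**
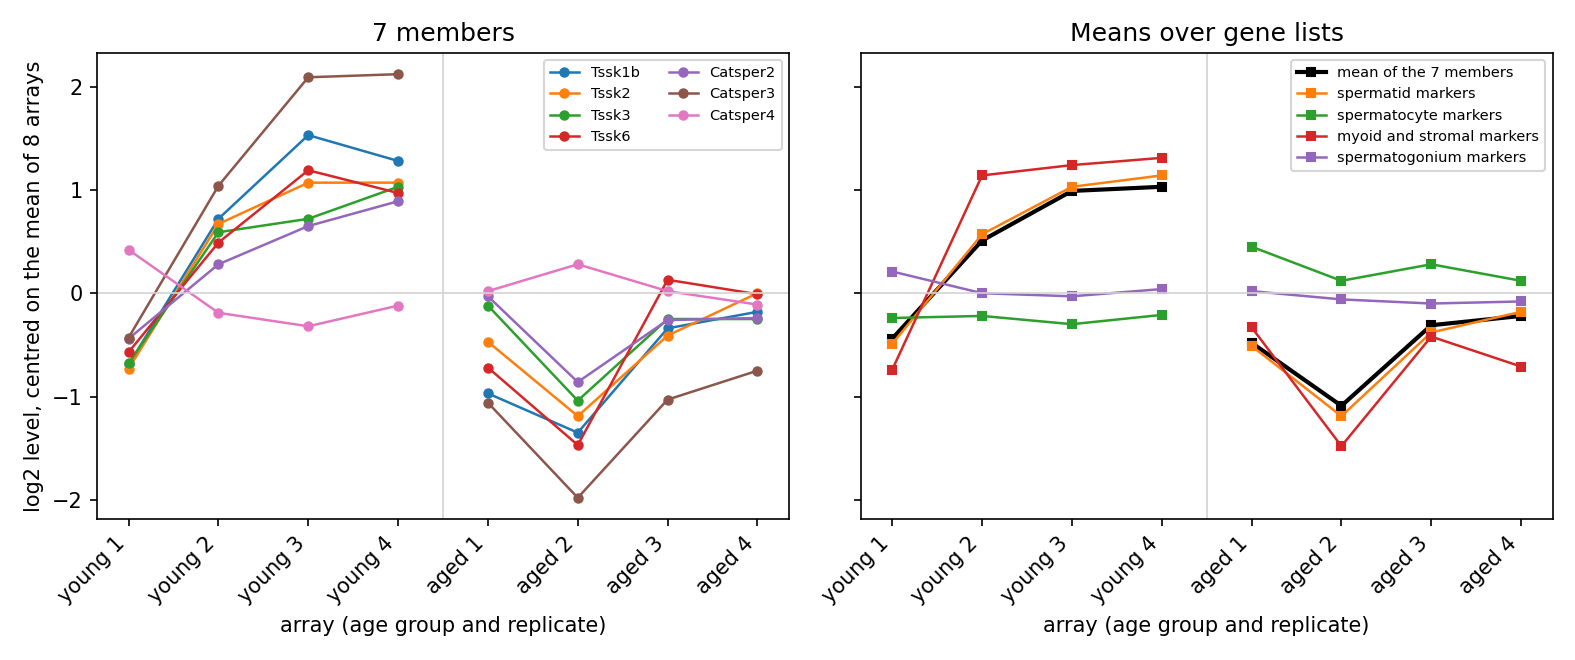
Log2 levels centred on the mean of 8 arrays, for each of the 7 members (left) and for means over gene lists (right); lines join values of 1 gene or list within an age group, and arrays have no order. The mean of the members runs with the spermatid markers, from −1.09 on aged replicate 2 to 1.03 on young replicate 4, while Catsper4 runs the other way and the spermatocyte mean separates the age groups.

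Genes whose profile over the 8 arrays was nearest to the mean member profile were Ube2j1, Ace, Cct6b, Ak8 and Atp6ap1l, with root mean square distances of 0.07, 0.08, 0.09, 0.09 and 0.09 on the log2 scale. Ube2j1 is a ubiquitin-conjugating enzyme of the endoplasmic reticulum, Ace is the angiotensin-converting enzyme and Cct6b a chaperonin subunit of the testis. Their own differences ran from −1.13 to −0.93 and 0 of them passed (adjusted p from 0.0859 to 0.108).

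**Figure D4:**
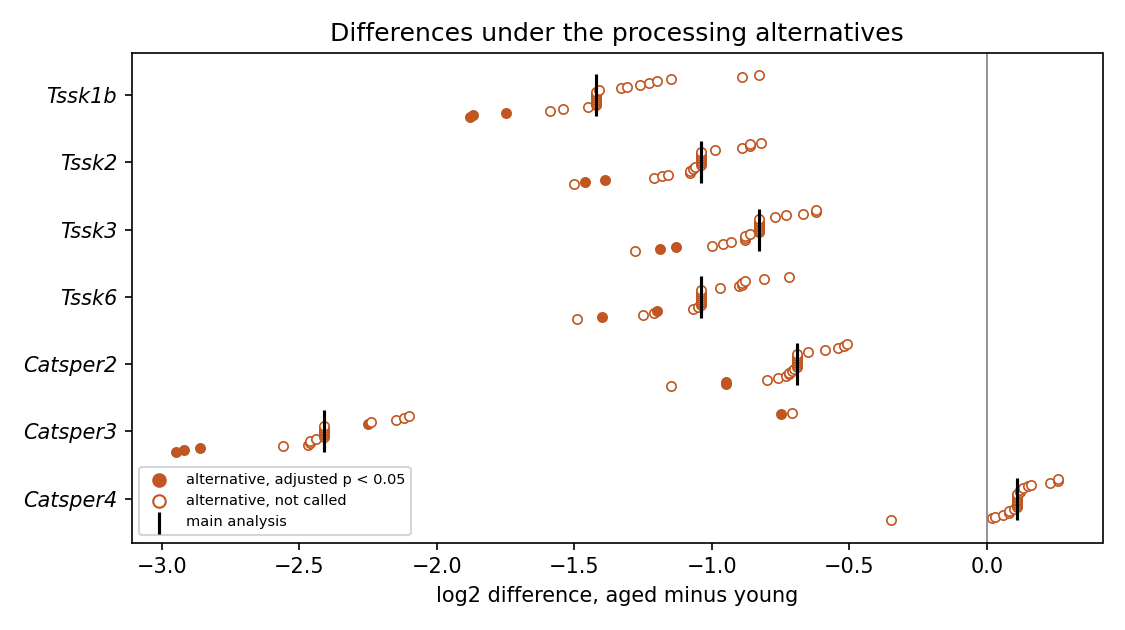
Log2 differences of the 7 members under the 23 processing alternatives (circles, filled where adjusted p was under 0.05) and in the main analysis (vertical bars); the height of circles within a gene has no meaning. The differences of the 6 members with lower means stay below 0, from −2.95 to −0.51, and Catsper4 is below 0 at −0.35 in 1 alternative.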

How the data were processed

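Scanner files were written by Agilent's Feature Extraction, version 10.7.3.1 with a rat design of build rn4 per the file headers, while the submitters' processing notes give version 12.5. The deposited processed signal is an intensity already corrected for background and spatial trend but not scaled across arrays, per the file headers. The deposited table of the authors holds log2 values with the median of each probe at 0 (within 5e-07), and differences between its columns matched those computed here (r across probes rounds to 1 on every array). Its column medians ran from −0.136 to 0.093. Scale and direction of that table were settled by this match.

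Control and outlier spots (0.842% of non-control spots) were left out, spots of a probe averaged, and the 75th percentile over the probes of each array subtracted from log2 signals. Probes were named through their accession in RefSeq (assembly GRCr8): 17998 of 30367 matched 15154 genes. Probes were required to have a share of 0.5 or more of spots well above background, on each array of at least 1 group. The highest of a gene's probes was used. Aged and young arrays were compared in R 4.3.3 with limma 3.58.1, two-sided, with 9.15 degrees of freedom and Benjamini-Hochberg adjustment over 10236 genes, calling genes at 0.05; the fit was tested on simulated data. No spot was saturated. The number of arrays limits the precision.

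The rule named all members, the measured auxiliary subunits and kinase partners, and from other lists up to 4 called genes or the 2 with the smallest p. Members and lists were chosen with earlier results of these data known. Alternatives covered scaling, background, filters, probes, variance models, array weights, the replicate block and leaving out each array.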

Additional observations from a re-analysis of the deposited data

Results flagged for a closer look

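Tssk3 in aged replicate 2 had a level of 1.29, against 2.07 to 2.20 on the other aged arrays. The gap to the nearest array was 0.859 of the whole range of the aged group, above Dixon's limit of 0.829 for 4 samples. Among the 14 groups of member levels checked this was the one past the limit, and chance puts about 1 in 20 groups past it. Aged replicate 2 was also the lowest aged array for Tssk1b (−3.40), Tssk2 (0.80), Tssk6 (−1.65), Catsper2 (0.05) and Catsper3 (−5.99) and the highest for Catsper4 (−0.25), none of them past the limit.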

How the results depend on the processing

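The number of genes called moved from 67 to 1330 with median scaling, 1067 with scaling to spike-in RNA, 630 and 253 with normexp correction followed by percentile or quantile scaling, 270 with trend and robust variance, 4564 with array weights, and 0 with no scaling, no filter on dim probes, unnamed probes tested too or the replicate block. At an unadjusted p under 0.05 these last settings had 1389, 3339, 4929 and 3231 genes in limma. Leaving out each array gave 0 to 3776 called genes and 0 to 6 called members, the highest without young replicate 1. Called members moved from 0 to 1 with median scaling (Catsper3, −2.25, adjusted p = 0.0314), 2 with spike-in scaling (Catsper3 and Tssk1b, −2.86 and −1.87, adjusted p = 0.0401 and 0.0494), 1 with normexp and percentile scaling (Catsper3) and 6 with array weights, all lower in aged cells. Catsper4 turned to −0.35 with spike-in scaling. The cause of these moves was not tested. The share of rises among calls went from 76.1% to 57.6% with normexp and percentile scaling, 86.6% with normexp and quantile scaling and 0.562% with spike-in scaling. The differences of the other 6 members stayed below 0 under all 23 alternatives (22 for Catsper3, which is not tested when all arrays must be above background): Tssk1b from −1.88 to −0.83, Tssk2 from −1.5 to −0.82, Tssk3 from −1.28 to −0.62, Tssk6 from −1.49 to −0.72, Catsper2 from −1.15 to −0.51 and Catsper3 from −2.95 to −0.71. Same-numbered young and aged samples correlated in their deviations across genes at −0.26, −0.12, 0.44 and 0.35, and 1 of the 8 samples correlated best with its own number. The labels do not state whether same-numbered samples were paired, and these correlations cannot settle it. With the replicate block 0 members were called. Signals near background, as for Catsper3 in aged cells, limit the size of a difference.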

Other observations

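Several ion transport genes of sperm could not be tested because their signals were near background. Lrrc52, an auxiliary subunit of the sperm potassium channel, was well above background on 3 young arrays and 1 aged array. Its levels were −6.37, −3.94, −3.41 and −3.42 in young replicates 1 to 4 and −5.44, −6.05, −5.15 and −5.05 in aged replicates 1 to 4, with young replicate 1 below all aged arrays. Trpv6, Slc26a3 and Pkdrej were well above background on 0 of the 8 arrays. Cftr, the chloride channel of cystic fibrosis, was well above background on all 8 arrays and differed by 0.45 ± 0.23 (limma adjusted p = 0.213).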
